A study of Mus musculus with 6 samples.

Results

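Before birth the airspaces of the lung are filled with liquid, and 9 genes that move its salt and water were followed here in whole mouse lungs at E18.5, late gestation. They were the rows of the deposited table whose symbol was Scnn1a, Scnn1b, Scnn1g, Atp1b1, Cftr, Slc12a2, Ano1, Aqp1 or Aqp4, 9 of 55359 rows, and all 9 had enough counts to be tested among 17728 genes. The embryos were 3 with the genotype label Prmt5 knockdown, set against 3 labelled wild type, all of strain C57, and no other allele or agent is given in the labels. The series text speaks of a knockout of Prmt5, a protein arginine methyltransferase, specific to Dermo1 (another name of Twist2) in the lung mesenchyme, so the epithelium that carries most of these transporters is not the targeted tissue. The growth conditions describe pregnant mice with the mesenchymal knockdown, and whether the embryos of a group shared a litter is not stated. The p-values therefore cover only the variation among these 6 samples, part of which may be technical.

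In the fetal lung the epithelium secretes liquid: the cotransporter NKCC1, the product of Slc12a2, loads chloride across the basolateral membrane, and apical chloride channels such as CFTR and the calcium-activated ANO1 let it out. Around birth the direction turns to absorption, in which sodium enters through the apical epithelial sodium channel (ENaC, with alpha, beta and gamma subunits from Scnn1a, Scnn1b and Scnn1g) and leaves through the basolateral sodium pump, of which Atp1b1 encodes the beta subunit. Water follows, in part through aquaporins: Aqp1 is known from capillary endothelium, Aqp4 from the basolateral membrane of airway epithelium.

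Total counts per library were 16100007, 14390202 and 19262837 in the knockdown-labelled libraries and 16358478, 14383415 and 15544572 in wild type, and no member had fewer than 281 counts in any library. Prmt5 itself had 39.4, 47.6 and 46.7 CPM (counts scaled to a common library size after TMM) in the knockdown-labelled libraries and 46.6, 47.1 and 48.1 CPM in wild type, with a log2 difference of -0.08 (95% interval -0.29 to 0.13, edgeR adjusted p = 0.682), so every direction below rests on the labels. Without knockdown-labelled replicate 1 that log2 fold change was 0.0069. The lung label fitted its markers, with the 12 alveolar type 2 genes summing to 16612 to 20745 CPM in the knockdown-labelled libraries and 16064 to 20373 CPM in wild type. Heart muscle RNA set libraries apart: its 14 markers summed to 4560, 13226 and 3635 CPM in knockdown-labelled replicates 1 to 3 and to 538, 658 and 3137 CPM in wild type replicates 1 to 3, and none of the 14 was at 0. In RNA of a whole organ, fewer cells of a type and less RNA per cell cannot be told apart.

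Of the 9 members, 5 lay lower in all 3 knockdown-labelled libraries than in all 3 wild type ones (Scnn1a, Scnn1b, Scnn1g, Ano1 and Aqp1) and 2 lay higher (Atp1b1 and Aqp4), while Cftr and Slc12a2 overlapped. Over all genes tested 12.4% were lower and 10.8% higher without overlap. In edgeR's quasi-likelihood test 0 of the 9 reached an adjusted p under 0.05, where 0.0338% of all genes did (6 of 17728). At an unadjusted p under 0.05 the same test held 7 of the 9, 5 lower and 2 higher, against 17.0% of all genes. Those counts were 2 lower and 1 higher with heart muscle level as a covariate and 3 lower and 1 higher without wild type replicate 1, and 1 was higher without wild type replicate 3. DESeq2 called 6 of the 9, all of these except Scnn1a, where it called 4.78% of all genes, and edgeR without the filter on low counts called Aqp1, where it called 0.249% of 32572 genes. The median log2 fold change of the members was -0.27, beside 0.01 over all genes tested. The members were chosen with earlier results of these data known, so the shares over all genes are no independent test of them.

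**Figure D1:**
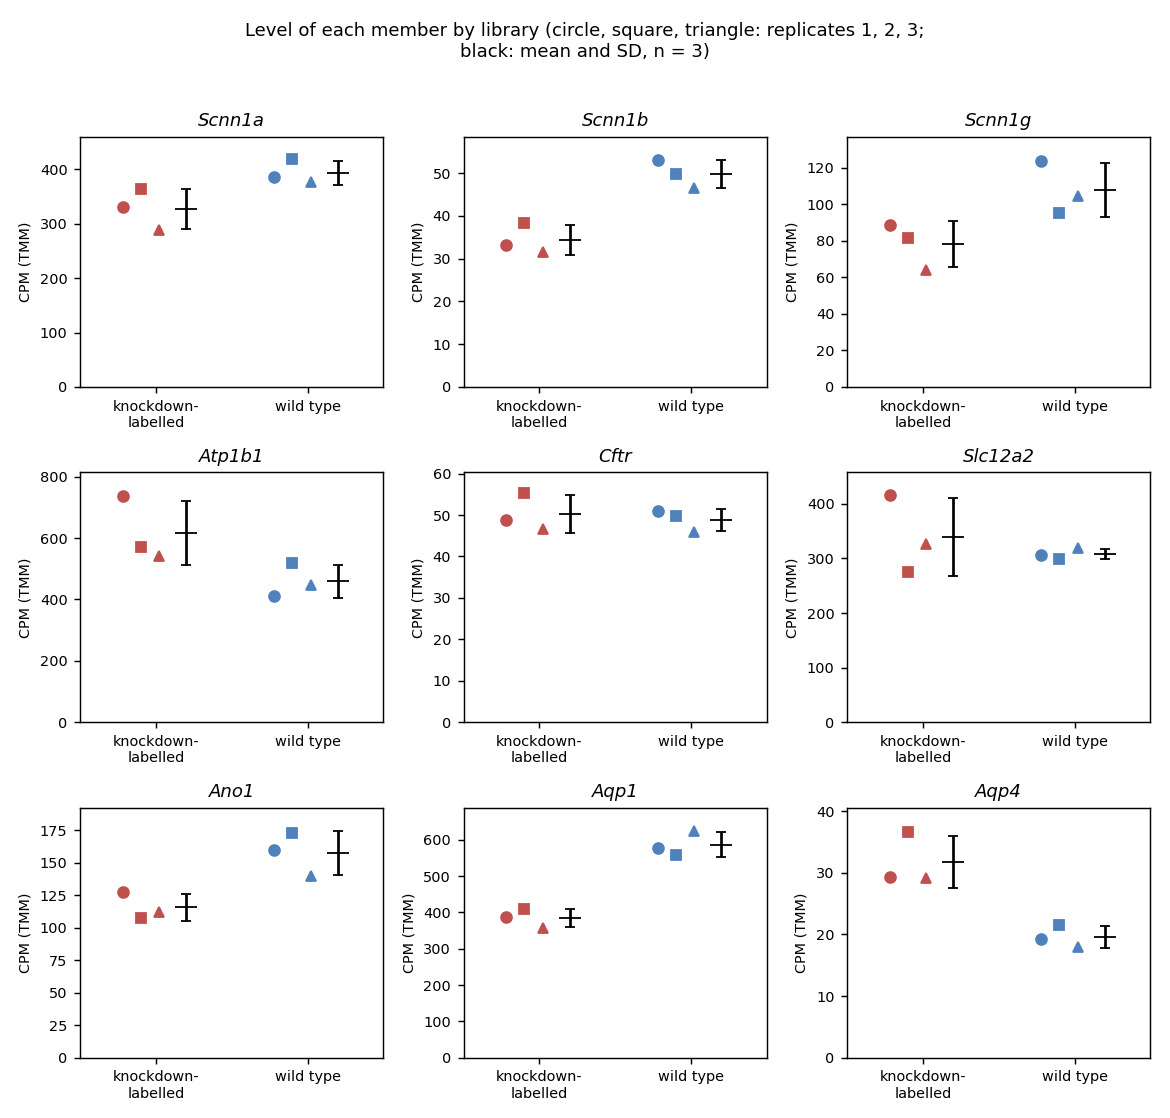
CPM of each of the 9 members (vertical axes, starting at 0) in the 3 knockdown-labelled and the 3 wild type libraries; symbols are replicates, and black marks give the mean and SD. The red points lie below all blue ones for Scnn1a, Scnn1b, Scnn1g, Ano1 and Aqp1, above all of them for Atp1b1 and Aqp4, and among them for Cftr and Slc12a2.

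Scnn1g and Scnn1b lie near each other on chromosome 7 and both stood lower, and Aqp1 had the smallest p of the members, so their promoters are shown first. The windows run from 250 bases before to 50 bases after the gene's start in RefSeq on GRCm38.p6, 5′ to 3′ on the gene's strand, with matches to GGGCGG, the GC box bound by Sp1-type factors, in capitals on either strand.
Scnn1g, chr7:121734229-121734528, plus strand: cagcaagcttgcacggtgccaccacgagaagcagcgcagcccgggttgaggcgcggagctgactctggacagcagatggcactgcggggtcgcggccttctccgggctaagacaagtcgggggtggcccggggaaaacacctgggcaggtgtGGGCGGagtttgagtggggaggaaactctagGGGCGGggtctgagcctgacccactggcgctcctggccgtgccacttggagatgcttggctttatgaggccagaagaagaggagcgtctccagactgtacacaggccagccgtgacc
Scnn1b, chr7:121864788-121865087, plus strand: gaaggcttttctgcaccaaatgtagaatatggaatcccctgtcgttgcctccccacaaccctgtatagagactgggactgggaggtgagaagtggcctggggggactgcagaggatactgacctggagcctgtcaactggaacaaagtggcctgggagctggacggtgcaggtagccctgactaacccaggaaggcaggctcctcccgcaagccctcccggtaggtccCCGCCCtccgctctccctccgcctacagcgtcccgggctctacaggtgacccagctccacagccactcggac
Aqp1, chr6:55336049-55336348, plus strand: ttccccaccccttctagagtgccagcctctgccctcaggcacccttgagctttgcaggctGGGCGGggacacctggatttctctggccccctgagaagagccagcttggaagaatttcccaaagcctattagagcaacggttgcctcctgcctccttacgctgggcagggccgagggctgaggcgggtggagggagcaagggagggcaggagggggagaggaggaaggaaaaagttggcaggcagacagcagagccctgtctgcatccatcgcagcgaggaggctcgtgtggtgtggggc
Promoters were found for 6 members, Scnn1b, Scnn1g, Atp1b1, Cftr, Ano1 and Aqp1. A GC box was present in 6 of the 6, against 35.7% of 32851 promoters of the same length. The TATA box letters TATAAA (in 13.6% of all promoters), the glucocorticoid receptor half-site TGTTCT (19.0%) and the forkhead core TGTTTAC (3.6%) were in 0 of the 6, counting both strands, and no match overlapped another motif. The 3 windows shown had a GC content of 64.7%, 61.7% and 62.7%, and those of Atp1b1, Cftr and Ano1 71.0%, 71.3% and 71.7%, against a median of 52.7%. The 35.7% with a GC box was over all promoters and not matched for GC content.

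The sodium channel was the part of the pathway in which every member stood lower. Scnn1a, whose alpha subunit is needed for the channel to work and without which newborn mice fail to clear lung liquid, had 330, 363 and 289 CPM in the knockdown-labelled libraries and 385, 419 and 377 CPM in wild type. The groups did not overlap, but knockdown-labelled replicate 2 came close to wild type replicate 3, and the means were 328 ± 37.1 and 394 ± 22.2 CPM (SD, n = 3 each). The difference of -0.27 on the log2 scale (standard error 0.10, 95% interval -0.50 to -0.03) had an edgeR adjusted p of 0.26. Scnn1a is at chromosome 6, 125297622 to 125321906, plus strand, in the table's coordinates, whose build is not given in the sources used here. They differ from those of the promoter windows. The Aqp1 window starts at 55336049, past the end of Aqp1 at 55325540 in the deposited coordinates, so the positions cannot be set side by side.

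Scnn1b, the beta subunit gene (chromosome 7, 121464261 to 121517737), had 33.1, 38.4 and 31.6 CPM in the knockdown-labelled libraries and 52.9, 49.9 and 46.4 CPM in wild type. Its groups stood clear of each other, with means of 34.4 ± 3.53 and 49.7 ± 3.27 CPM (SD, n = 3 each) and a log2 fold change of -0.53 (95% interval -0.76 to -0.31, edgeR adjusted p = 0.115). Scnn1b overlaps Cog7 on the other strand, with 3998 and 2689 counts over the 6 libraries, and without a stated strand setting reads of the shared stretch cannot be told apart. Scnn1g, the gamma subunit gene (chromosome 7, 121333702 to 121367698), had 88.7, 81.8 and 64.2 CPM in the knockdown-labelled libraries and 124, 95.3 and 104 CPM in wild type. The lowest wild type library was only slightly above the highest knockdown-labelled one, and the log2 fold change was -0.46 (95% interval -0.81 to -0.12, edgeR adjusted p = 0.207). A gap of 96562 bases holding 1 other gene, Gm44740, separates Scnn1g from Scnn1b.

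Per length the 3 subunits were unequal in both groups. In FPKM, fragments scaled to exonic length and library total, Scnn1a averaged 79.5 ± 7.80 in the knockdown-labelled libraries and 94.9 ± 4.59 in wild type, Scnn1g 26.2 ± 4.10 and 35.9 ± 4.83, and Scnn1b 13.1 ± 1.12 and 18.8 ± 1.11 (SD, n = 3 each). The alpha transcript thus exceeded the beta one 6.36, 6.04 and 5.83 times in the knockdown-labelled libraries and 4.64, 5.35 and 5.18 times in wild type. Every knockdown-labelled library had a higher alpha to beta ratio than every wild type one, a difference of 0.27 on the log2 scale. An exact two-sided permutation test gave p = 0.1, the smallest that 3 against 3 libraries allow, and 0.2 adjusted over the 6 ratios compared. The alpha to gamma ratio (3.06 ± 0.315 in knockdown-labelled and 2.68 ± 0.468 in wild type libraries, exact permutation p = 0.2) and the beta to gamma ratio (0.505 ± 0.072 and 0.528 ± 0.0578, exact permutation p = 0.7) overlapped between the groups.

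**Figure D2:**
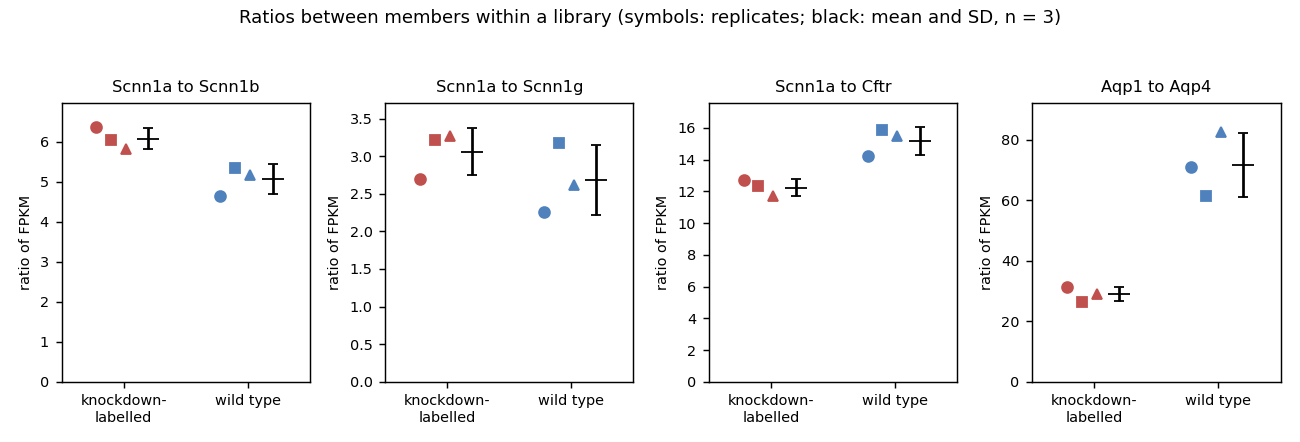
Ratios of FPKM between pairs of members within each library (vertical axes, starting at 0), knockdown-labelled left of wild type; symbols are replicates, and black marks give the mean and SD. The Scnn1a to Scnn1b ratio is higher, and the Scnn1a to Cftr and Aqp1 to Aqp4 ratios lower, in every knockdown-labelled library, while Scnn1a to Scnn1g overlaps.

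Markers of alveolar type 1 cells, flat epithelial cells in which these subunits are known to be active, also stood lower. All 12 listed markers were tested and all 12 had a negative log2 fold change, the median being -0.49. In edgeR 0 passed the adjusted p and 7 had an unadjusted p under 0.05. Over all genes tested 8353 of 17728 had a negative log2 fold change, and 8.52% were lower at that unadjusted level. The type 1 markers summed to 4350 to 5740 CPM in the knockdown-labelled libraries and 6719 to 7800 CPM in wild type, and none was at 0. Set against that sum within a library, Scnn1b came to 0.577%, 0.678% and 0.728% of the type 1 markers in the knockdown-labelled libraries and to 0.679%, 0.719% and 0.691% in wild type. Scnn1g came to 1.49% ± 0.0516 in the knockdown-labelled and 1.51% ± 0.114 in the wild type libraries (SD, n = 3 each), and Scnn1a to 6.28% ± 0.465 and 5.53% ± 0.557. On that scale the groups overlapped for all 3 subunits. The ratios to marker lists were chosen after the data were seen, and the part of type 1 cells in the subunit differences was not tested. Set against 12 pan-epithelial markers instead (1603 to 1972 CPM in knockdown-labelled and 1672 to 1871 CPM in wild type libraries, median log2 fold change 0.10), Scnn1b was lower in every knockdown-labelled library, at 1.68%, 2.39% and 1.62% of their sum against 3.00%, 2.67% and 2.78% in wild type, while Scnn1a and Scnn1g overlapped.

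**Figure D3:**
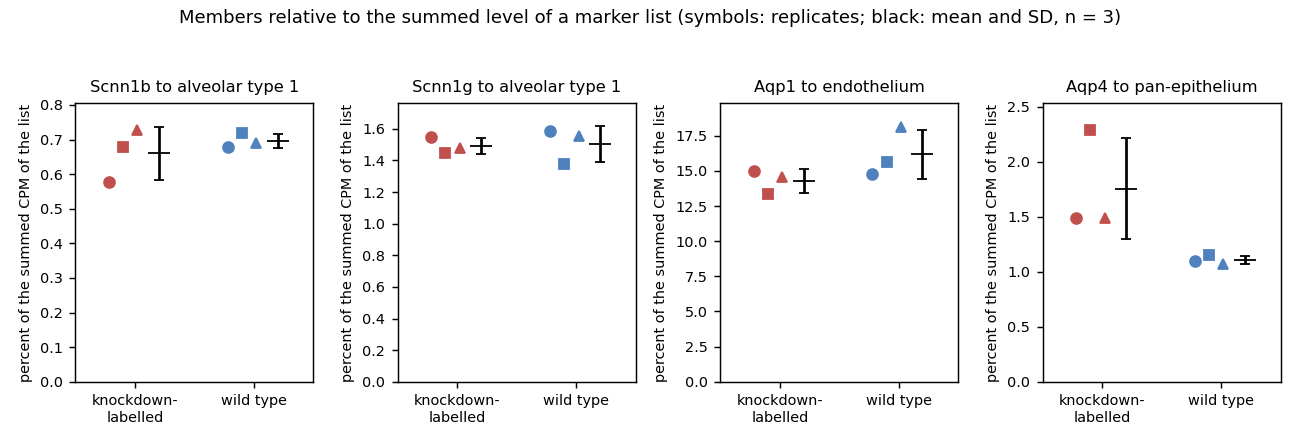
CPM of a member as a percent of the summed CPM of a marker list, by library (vertical axes, starting at 0), for Scnn1b and Scnn1g against alveolar type 1 markers, Aqp1 against endothelium and Aqp4 against pan-epithelial markers; symbols are replicates, and black marks give the mean and SD. The groups overlap in the first 3 panels, and Aqp4 is higher in every knockdown-labelled library.

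The sodium pump ran the other way. Atp1b1 (chromosome 1, 164264678 to 164285924, minus strand) had 737, 572 and 541 CPM in the knockdown-labelled libraries and 413, 518 and 447 CPM in wild type. Knockdown-labelled replicate 1 was well above the rest and the other two were close to wild type replicate 2, and the means were 616 ± 105 and 459 ± 53.9 CPM (SD, n = 3 each). The log2 fold change was 0.42 (95% interval 0.08 to 0.76, edgeR adjusted p = 0.224), and 0.29 without knockdown-labelled replicate 1. Heart muscle also uses this subunit. The part of heart muscle in the difference was not tested beyond a fit with its level as a covariate, in which the log2 fold change was 0.50 (edgeR adjusted p = 0.706). Atp1b1 overlaps Nme7 on the other strand, with 51752 and 1276 counts in all.

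Of the 11 other sodium pump and FXYD genes, FXYD proteins being small regulators of the pump, 9 had positive log2 fold changes, 0 passed the adjusted p, and 5 stood higher and 0 stood lower at an unadjusted p under 0.05 in edgeR, with a median of 0.40. Over all genes tested 8.48% were higher and 8.52% lower at that level. Fxyd1, abundant in heart and muscle, stood at 55.7 ± 21.4 CPM in the knockdown-labelled and 30.3 ± 5.88 CPM in the wild type libraries (SD, n = 3 each), with its highest value of 79.5 CPM in the heart-rich knockdown-labelled replicate 2. With heart muscle level as a covariate its log2 fold change of 0.87 was 0.07, and without knockdown-labelled replicate 2 it was 0.53. Fxyd6 averaged 15.3 ± 3.10 CPM in the knockdown-labelled and 7.97 ± 3.37 CPM in the wild type libraries (edgeR adjusted p = 0.212). Fxyd2 had 12, 20 and 113 counts in the knockdown-labelled libraries and 6, 2 and 10 in wild type, and its log2 fold change of 2.76 was 1.44 without knockdown-labelled replicate 3.

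Among the regulators of the sodium channel, 18 of 20 listed genes were tested. At an unadjusted p under 0.05, 2 stood higher and 4 stood lower, against 8.48% and 8.52% of all genes tested. None passed the adjusted p, and the median log2 fold change was -0.02. Nr3c1, the glucocorticoid receptor through which the channel genes are known to be induced before birth, had 202, 216 and 186 CPM in the knockdown-labelled libraries and 269, 249 and 265 CPM in wild type, without overlap (log2 fold change -0.38, edgeR adjusted p = 0.13). Sgk1, the kinase that keeps the channel at the cell surface, had 57.5, 87.9 and 57.2 CPM in the knockdown-labelled libraries against 86.0, 100.2 and 100.2 CPM in wild type, with overlap (log2 fold change -0.50, edgeR adjusted p = 0.237). Tmprss4, a membrane protease that can cleave the channel, was at 12.1 ± 1.33 CPM in the knockdown-labelled and 8.85 ± 0.384 CPM in the wild type libraries, and Usp2, a deubiquitinase, at 28.0 ± 7.99 and 12.9 ± 4.86 CPM (edgeR adjusted p = 0.191 and 0.18).

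The chloride side of secretion did not stand together. Cftr (chromosome 6, 18170686 to 18322767) had 48.9, 55.3 and 46.6 CPM in the knockdown-labelled libraries and 51.0, 49.7 and 45.8 CPM in wild type. The groups were interleaved, with a log2 fold change of 0.04 whose 95% interval of -0.17 to 0.25 bounds the difference to folds between 0.889 and 1.19 (edgeR adjusted p = 0.862). Slc12a2 (chromosome 18, 58011750 to 58079893) had 416, 275 and 326 CPM in the knockdown-labelled libraries and 305, 299.8 and 319 CPM in wild type. The knockdown-labelled libraries spread on both sides of the narrow wild type range, and the log2 fold change of 0.14 (95% interval -0.21 to 0.48, edgeR adjusted p = 0.682) was -0.02 without knockdown-labelled replicate 1.

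Ano1 (chromosome 7, 144142286 to 144305711, minus strand) differed from the other two chloride genes in its direction, with 127, 108 and 112 CPM in the knockdown-labelled libraries and 160, 173 and 139 CPM in wild type. All 3 knockdown-labelled libraries lay below wild type, the means were 116 ± 10.3 and 158 ± 17.0 CPM (SD, n = 3 each), and the log2 fold change was -0.44 (95% interval -0.69 to -0.20, edgeR adjusted p = 0.145). Airway smooth muscle also carries this channel. The 10 smooth muscle markers summed to 1229 to 1884 CPM in the knockdown-labelled libraries and 1435 to 1702 CPM in wild type, none at 0, and their part in the Ano1 difference was not tested. Their median log2 fold change of 0.28 was -0.016 without knockdown-labelled replicate 3, 0.19 without wild type replicate 1 and 0.46 without wild type replicate 3. With heart muscle level as a covariate the log2 fold change of Ano1 was -0.21 (edgeR adjusted p = 0.766). Set against smooth muscle markers, Ano1 came to 8.06% ± 2.21 in the knockdown-labelled and 10.4% ± 1.99 in the wild type libraries, with overlap. Against pan-epithelial markers it was lower in every knockdown-labelled library, at 6.46%, 6.72% and 5.73% against 9.06%, 9.26% and 8.34% in wild type.

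Of absorptive to secretory transcripts only 1 pair, Scnn1a to Cftr, was compared within a library, which does not give the whole balance. In FPKM that ratio was 12.7, 12.3 and 11.7 in the knockdown-labelled libraries and 14.2, 15.9 and 15.5 in wild type, lower in 3 of 3 libraries by 0.31 on the log2 scale (exact permutation p = 0.1, the smallest possible, and 0.2 adjusted over the 6 ratios). Slc12a2 to Cftr overlapped (4.85 ± 1.26 in knockdown-labelled and 4.50 ± 0.384 in wild type libraries, exact permutation p = 0.7). No ratio with Atp1b1 or Ano1 was compared, and of these the absorptive Atp1b1 stood higher and the secretory Ano1 lower.

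Of 22 other chloride and bicarbonate genes 21 were tested. At an unadjusted p under 0.05, 4 stood higher and 3 stood lower, against 8.48% and 8.52% of all genes tested. None passed the adjusted p, and the median was 0.00 on the log2 scale. Stk39, which encodes SPAK, the kinase that phosphorylates and activates NKCC1, had 57.0, 87.3 and 84.7 CPM in the knockdown-labelled libraries and 33.6, 36.9 and 42.9 CPM in wild type. Its groups did not overlap (log2 fold change 1.01, edgeR adjusted p = 0.112), nor did those of Wnk4, a kinase upstream of SPAK (17.6 ± 2.89 CPM in knockdown-labelled and 10.7 ± 1.48 CPM in wild type libraries, edgeR adjusted p = 0.144). The carbonic anhydrase genes stood the other way, Car2 at 127 ± 8.59 in the knockdown-labelled and 177 ± 12.05 CPM in the wild type libraries and Car4, of capillary endothelium, at 25.1 ± 5.17 and 37.4 ± 4.49 CPM (edgeR adjusted p = 0.104 and 0.18).

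Of 14 secretagogue receptor, cyclic AMP and potassium channel genes 12 were tested. At an unadjusted p under 0.05, 4 stood higher and 0 stood lower, against 8.48% and 8.52% of all genes tested. None passed the adjusted p, and the median log2 fold change was 0.27. The adenylate cyclase gene Adcy6 had 235, 257 and 226 CPM in the knockdown-labelled libraries and 179, 201 and 189 CPM in wild type, and Prkaca, the catalytic subunit of protein kinase A, 134, 168 and 168 CPM in the knockdown-labelled libraries against 126, 117 and 130 CPM in wild type. Both were higher in every knockdown-labelled library (edgeR adjusted p = 0.145 and 0.207). The size of the differences in Kcnn4, a potassium channel gene, and Vipr1, a receptor for vasoactive intestinal peptide, rested largely on knockdown-labelled replicate 3. That library had 500 and 202 counts, and any other at most 65 and 30. Their log2 fold changes of 2.21 and 1.898 were 0.77 and 0.39 without that replicate. Kcnn4 was higher in every knockdown-labelled library, at 3.75, 4.58 and 25.5 CPM against 1.72, 2.04 and 3.58 CPM in wild type, while Vipr1 overlapped.

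The water channels split. Aqp1 (chromosome 6, 55313417 to 55325540) had 387, 409 and 359 CPM in the knockdown-labelled libraries and 578, 558 and 624 CPM in wild type. The groups stood well apart, with means of 385 ± 25.3 and 587 ± 33.9 CPM (SD, n = 3 each), 1.52-fold higher in wild type. The log2 fold change was -0.61 (standard error 0.08, 95% interval -0.81 to -0.41), the 35th smallest p of 17728, and did not pass (edgeR adjusted p = 0.0805). It was -0.66 to -0.56 over single libraries left out and -0.77 to -0.58 over the other fits, heart muscle level as a covariate among them. Endothelial markers also stood lower: all 14 listed genes had a negative log2 fold change, the median being -0.41, where 8353 of all 17728 genes tested did. Of the 14, 11 had an unadjusted p under 0.05, against 8.52% of all genes tested that were lower at that level, and 0 passed the adjusted one. These markers summed to 2465 to 3062 CPM in the knockdown-labelled and 3445 to 3918 CPM in the wild type libraries, none at 0. Aqp1 came to 15.0%, 13.4% and 14.5% of that sum in the knockdown-labelled libraries and to 14.7%, 15.7% and 18.1% in wild type, which overlapped. The part of endothelium in the Aqp1 difference was not tested. Erythroid markers, since red cells also carry Aqp1, summed to 3252 to 3546 CPM in the knockdown-labelled and 3198 to 3771 CPM in the wild type libraries, with overlap.

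Aqp4 (chromosome 18, 15522553 to 15544039, minus strand) had 29.3, 36.6 and 29.2 CPM in the knockdown-labelled libraries and 19.3, 21.5 and 17.9 CPM in wild type. No library of the groups overlapped, the means were 31.7 ± 4.24 and 19.6 ± 1.81 CPM (SD, n = 3 each), and the log2 fold change was 0.69 (95% interval 0.40 to 0.98, edgeR adjusted p = 0.112), 1.62-fold higher in the knockdown-labelled lungs. Set against pan-epithelial markers it was higher in every knockdown-labelled library, at 1.48%, 2.28% and 1.49% of their sum against 1.09%, 1.15% and 1.07% in wild type. The same held against ciliated markers (6.21% ± 0.973 in knockdown-labelled and 4.60% ± 0.278 in wild type libraries), of which 11 of 12 had positive log2 fold changes with a median of 0.26, and against airway secretory markers (1.02% ± 0.143 and 0.655% ± 0.0736). At an unadjusted p under 0.05 in edgeR 6 of the 12 ciliated markers were higher and 0 lower, and 0 passed the adjusted one. Over all genes tested 9375 of 17728 had a positive log2 fold change and 8.48% were higher at that unadjusted level. Ciliated markers summed to 499 to 518 CPM in the knockdown-labelled and 410 to 438 CPM in the wild type libraries, none at 0, and their part in the Aqp4 difference was not tested.

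The ratio of Aqp1 to Aqp4 joined both differences. In FPKM it was 31.4, 26.5 and 29.2 in the knockdown-labelled libraries and 70.9, 61.6 and 82.5 in wild type, a log2 difference of -1.30 with groups far apart (exact permutation p = 0.1, the smallest possible, and 0.2 adjusted over the 6 ratios). Of 9 other aquaporin genes 4 were tested, with 1 lower at an unadjusted p under 0.05 (against 8.52% of all genes tested), 0 at the adjusted one. Their median log2 fold change of 0.71 was -0.17 with heart muscle level as a covariate, 0.06 in limma on log2(FPKM + 1), 0.42 without wild type replicate 1 and 1.35 without wild type replicate 3. The lower gene was Aqp5, the apical water channel of alveolar type 1 cells, with 101, 97.1 and 118 CPM in the knockdown-labelled libraries and 138, 135 and 121 CPM in wild type (log2 fold change -0.32, edgeR adjusted p = 0.199). Aqp11 had 9.29, 11.2 and 3.37 CPM in the knockdown-labelled libraries against 2.83, 3.80 and 5.04 CPM in wild type. Aqp3 had 9.78, 4.65 and 17.6 CPM in the knockdown-labelled libraries against 3.26, 4.64 and 16.7 CPM in wild type. Both overlapped between the groups (edgeR adjusted p = 0.309 and 0.832). Aqp7 had 0.308, 2.12 and 0.970 CPM in the knockdown-labelled libraries and 0.308, 0.352 and 0.639 CPM in wild type, at 5 to 30 counts per library.

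Several of these values moved when heart muscle level was added as a covariate. The log2 fold change was then 0.50 for Fxyd6, 0.47 for Usp2, 0.26 for Tmprss4, 0.21 for Prkaca, 0.67 for Stk39, -0.95 for Sgk1, -0.10 for Aqp5 and 0.071 for Aqp11. The heart muscle sums themselves did not overlap, the lowest being 3635 CPM under the knockdown label and the highest 3137 CPM in wild type, so the covariate and the label are partly confounded. In the same fit the median was 0.17 for the sodium channel regulators and 0.22 for the sodium pump and FXYD genes. With the heart-richest library of each group left out the median of the pump and FXYD genes was 0.68. The libraries kept still differed in heart muscle markers, at 4560 and 3635 CPM under the knockdown label and 538 and 658 CPM in wild type.

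**Figure D4:**
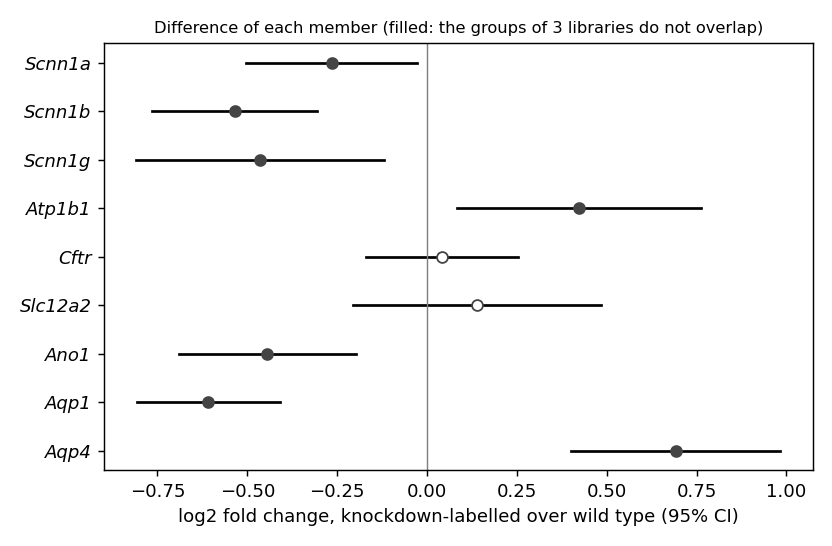
Log2 fold change of each member, knockdown-labelled over wild type, from edgeR's quasi-likelihood fit (horizontal axis), with its 95% confidence interval as a line; filled points mark members whose groups of 3 libraries do not overlap. The estimates run from -0.61 for Aqp1 to 0.69 for Aqp4, and the intervals of Cftr and Slc12a2 cross 0.

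Per length, the order of the members' levels differed between the groups at the top and in the middle. In the knockdown-labelled libraries Atp1b1 came first (201 ± 35.2 FPKM), followed by Aqp1 (147 ± 7.50), Scnn1a (79.5 ± 7.80), Slc12a2 (31.2 ± 6.87), Scnn1g (26.2 ± 4.10), Ano1 (18.4 ± 1.80), Scnn1b (13.1 ± 1.12), Cftr (6.50 ± 0.48) and Aqp4 (5.10 ± 0.601). There Slc12a2 and Scnn1g overlapped and no other neighbours did. In wild type the order was Aqp1 (223 ± 15.2 FPKM), Atp1b1 (148 ± 16.8), Scnn1a (94.9 ± 4.59), Scnn1g (35.9 ± 4.83), Slc12a2 (28.1 ± 1.17), Ano1 (24.8 ± 2.45), Scnn1b (18.8 ± 1.11), Cftr (6.26 ± 0.289) and Aqp4 (3.13 ± 0.259), with no overlap between neighbours (SD, n = 3 each). Ano1 and Slc12a2 came closest there, at a highest value of 27.08 FPKM for Ano1 and a lowest of 27.13 for Slc12a2. In wild type Aqp1 was above 99.4% of the genes tested and Aqp4 above 38.9%.

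Across the 6 libraries the listed genes most like each member were found by Pearson's r of log2 CPM, as a description in which the group difference itself is shared by all points. Scnn1b was most like the endothelial genes Pecam1 (r = 0.996) and Tie1 (0.992), and Scnn1a like Erg (0.964) and Tek (0.951). Scnn1g was most like the alveolar type 1 genes Clic5 (0.982) and Gprc5a (0.968), and Aqp1 like Npnt (0.993) and Col4a3 (0.984). Ano1 went with Pdgfra (0.954) and Spint1 (0.923), Aqp4 with Adcy6 (0.973) and Foxj1 (0.942), and Atp1b1 with Wnk4 (0.963) and Slc26a9 (0.847). Slc12a2 went with the keratin genes Krt18 (0.913) and Krt8 (0.827), and Cftr with Fxyd5 (0.958) and Slc4a4 (0.865).

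**Figure D5:**
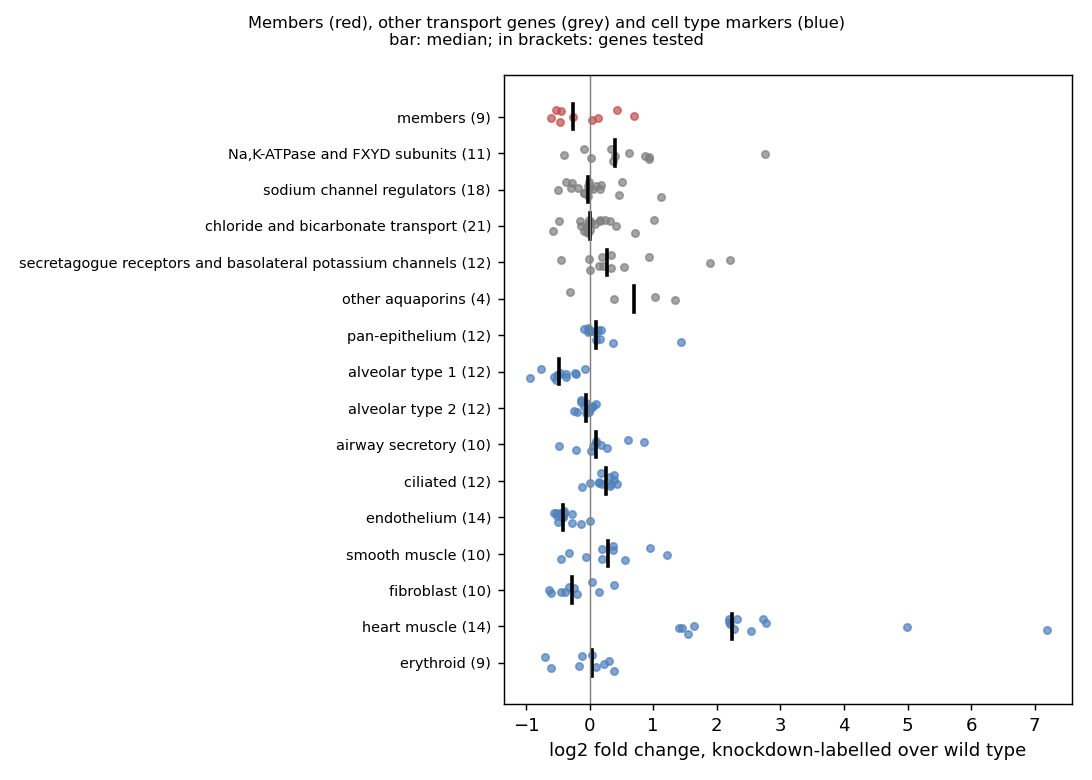
Log2 fold change, knockdown-labelled over wild type (horizontal axis), of the members (red), the other transport genes by list (grey) and the cell type markers by list (blue); each point is a gene, black bars are medians, and the number of genes tested is in brackets. Alveolar type 1 and endothelial markers lie at or below 0 and heart muscle markers above it, with a median of 2.24.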

How the data were processed

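Poly(A) RNA of whole lungs was sequenced as paired ends, per the labels' protocols. The authors deposited raw counts for each gene in each library, beside FPKM values and exonic lengths, per the file headers. HTSeq 0.6.1, HISAT2 2.0.1 and cutadapt 1.9.1 are listed in the submitters' processing notes. Neither genome build nor strand setting is given in the sources used here. FPKM recomputed from the counts and lengths matched within 0.005. No row of unassigned reads is in the table.

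The 3 knockdown-labelled libraries were compared with the 3 wild type ones by edgeR 4.0.16 in R 4.3.3: filterByExpr, TMM factors, library sizes as total counts, and the group as the only term, with Benjamini-Hochberg adjustment over all 17728 genes tested and a two-sided threshold of 0.05. The standard error is the absolute log2 fold change over the root of the quasi-likelihood F, and intervals are at 95%. Ratios of FPKM were compared by exact permutation. DESeq2 1.42.0 and limma 3.58.1 on log2(FPKM + 1) served as alternatives. A floor of 3 counts was 0.156 to 0.209 CPM. The scripts were tested on simulated data.

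Genes named are the members, Prmt5, up to 4 genes with the smallest p of each of 5 pathway lists, and for each member the 2 listed genes (mean CPM of at least 5) most like it; 1 gene that the rule names is not reported here. The 15 pathway and cell type lists held 192 genes, of which 181 were tested. Ahsp was not found by symbol in the table. Ratios to marker lists were chosen after the data were seen. The members and lists were chosen with earlier results of these data known. Promoter sequences are from RefSeq on GRCm38.p6.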

Additional observations from a re-analysis of the deposited data

How the results depend on the processing

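No paired analysis was possible because the labels number the 6 embryos without shared numbers between the groups. The 9 members, the counts of members and the 6 ratios were recomputed under up to 18 alternatives. Every member kept its direction in every alternative except Cftr and Slc12a2. Cftr was at -0.033 without knockdown-labelled replicate 2 (range over single libraries left out -0.033 to 0.096). It was at -0.076 with the heart-richest library of each group, knockdown-labelled replicate 2 and wild type replicate 3, left out. That alternative was chosen after seeing the data and does not remove the heart muscle difference. The heart muscle markers of the libraries kept summed to 4560 and 3635 CPM under the knockdown label and 538 and 658 CPM in wild type. Slc12a2 ranged from -0.025 to 0.27 over single libraries left out.

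DESeq2 moved members past the threshold: Scnn1b (log2 fold change -0.54, adjusted p = 0.00261), Scnn1g (-0.47, 0.0481), Atp1b1 (0.42, 0.0494), Ano1 (-0.45, 0.00801), Aqp1 (-0.61, 6.85e-09) and Aqp4 (0.69, 0.00145), 6 in all against 0. Without the filter edgeR called 1, Aqp1 (-0.61, adjusted p = 0.0255). The count of members higher at an unadjusted p under 0.05 was 1 with heart muscle level as a covariate and 1 with the heart-richest library of each group left out, against 2. It was 1 to 2 over single libraries left out, with 1 without wild type replicate 1 or 3. The count lower was 2 with heart muscle level as a covariate, against 5, and 3 to 5 over single libraries left out, with 3 without wild type replicate 1. With heart muscle level as a covariate the adjusted p of the members was 0.69 to 0.98.

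Over all genes 1 was called higher and 5 lower. The counts were 32 and 49 without the filter, 373 and 456 in DESeq2, 0 and 3 in limma on log2(FPKM + 0.1), 1 and 14 in robust edgeR, 0 and 0 with the Y-linked level, 0 and 1 with heart muscle level and 0 and 1 with pan-epithelium level as a covariate. They were 124 and 23 with the heart-richest library of each group left out. Over single libraries left out they were 0 to 13 and 0 to 4. The cause was not tested. Scnn1b to Scnn1g changed sign when knockdown-labelled replicate 1 (0.053) or wild type replicate 2 (0.019) was left out, a range of -0.15 to 0.053, as did Slc12a2 to Cftr without knockdown-labelled replicate 1 (-0.098 to 0.29). Prmt5 ranged from -0.13 to 0.0069 over single libraries left out. Aqp3 was at -0.23 with heart muscle level, -0.19 with pan-epithelium level and from -0.18 to 1.44 over single libraries left out, and Aqp7 at -0.31 with heart muscle level. Every member had 281 counts or more in each library, while Fxyd2 and Aqp7 had as few as 2 and 5.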
